A study of Bos taurus with 8 samples.

Results

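The tiled stretches of bovine chromosome 6 are 322 of the 10249 non-control probes of a custom array, and they were taken by position alone, as every probe that the scanner files place on chromosome 6. Split where neighbouring probe starts lie more than 20000 bp apart, they form 3 loci on Btau_3.1. The 2.4 Mb locus holds 6 probes (chr6:2411149-2419442), the 36.5 Mb locus 252 probes (chr6:36499883-36654602) and the 60.4 Mb locus 64 probes (chr6:60350305-60392001). No source at hand places a gene in these intervals on this build, so loci, regions and probes go by their coordinates, and their place relative to exons, introns and genes was not analysed here. Chromosome 6 was put forward with earlier results of these data known, in which several of its regions were higher in one feeding group. The group differences below are therefore descriptions and support nothing beyond themselves.

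The samples were 8 female cattle, each giving 1 array of DNA from the arcuate nucleus. Heifers 1 to 4 were on a schedule aimed at 1 kg of weight gain a day (high-gain) and heifers 5 to 8 on one aimed at 0.5 kg (low-gain), both from 4.5 months of age until sampling at 8.5 months. On each array, DNA pulled down by a methyl-CpG binding domain protein (enriched, red channel) was hybridised against total DNA of the same heifer (input, green channel), in the same dye orientation throughout. The labels mention no separation of cell types, and DNA probes without gene names offer no marker by which the tissue label could be checked.

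Methylation of cytosine at CpG sites is the main covalent mark of vertebrate DNA. Most CpG sites outside CpG islands carry it, while active promoters and many enhancers lack it. Methyl-CpG binding domain capture retains DNA fragments more readily the more methylated CpG sites they hold, so a low enriched-to-input ratio can come from few CpG sites as well as from unmethylated ones. The arcuate nucleus is a group of neurons at the base of the hypothalamus that senses nutritional state and takes part in the control of feeding and of the onset of puberty, which the feeding schedules of the study address.

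All values are log2(enriched/input) minus the median of all non-control probes of the same array, so 0 is the median probe of that array and not absence of methylation. The input channel was well above background at 81.5% ± 6.79 (SD, n = 4) of chromosome 6 probes on high-gain arrays and 81.0% ± 3.46 (SD, n = 4) on low-gain arrays, and at 207 of the 322 probes it was so on all 8 arrays (69.8% over the whole array design). Enriched signal cleared background at 70.2%, 78.0%, 67.7% and 69.9% of them in heifers 1 to 4, and at 65.8%, 60.9%, 66.1% and 42.9% in heifers 5 to 8. Every high-gain array thus lay above every low-gain array in enriched detection, with low-gain heifer 8 far below the other low-gain heifers. The same held on the other chromosomes, so this order is not particular to chromosome 6. There the shares were 73.8%, 76.0%, 70.8% and 74.9% in heifers 1 to 4, and 66.5%, 65.0%, 68.3% and 49.8% in heifers 5 to 8. On every array but that of heifer 2, enriched detection was lower on chromosome 6 than on the other chromosomes. Probes are called dim here when their enriched signal failed the scanner's test against background. Of the 322 probes, 68 were dim on all 4 low-gain arrays together, 49 on all 4 high-gain arrays together, and 42 on all 8 arrays (11.2% over the whole array design). No chromosome 6 probe was saturated.

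Chromosome 6 lay below the median probe in most heifers. The mean over its 322 probes was -0.12, 0.19, -0.16 and -0.74 in heifers 1 to 4 and -0.18, -0.53, -0.41 and -0.60 in heifers 5 to 8. Only heifer 2 lay above 0, and heifer 4 was the lowest of all. The groups overlapped fully, with a high-gain mean of -0.21 ± 0.39 (SD, n = 4) and a low-gain mean of -0.43 ± 0.18 (SD, n = 4), a difference of 0.22 that is smaller than the spread among high-gain heifers. It was 0.09 without high-gain heifer 2 and 0.40 without high-gain heifer 4, and 0.39 on slide row 1 against 0.06 on slide row 2. Set against the mean of all other probes on the same array, chromosome 6 was lower on 7 of 8 arrays, by -0.21 on average (SD 0.26, n = 8), with high-gain heifer 4 at -0.58 and high-gain heifer 2 at 0.19. No test is given for means over all chromosome 6 probes, because the chromosome was chosen with results known.

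**Figure D1:**
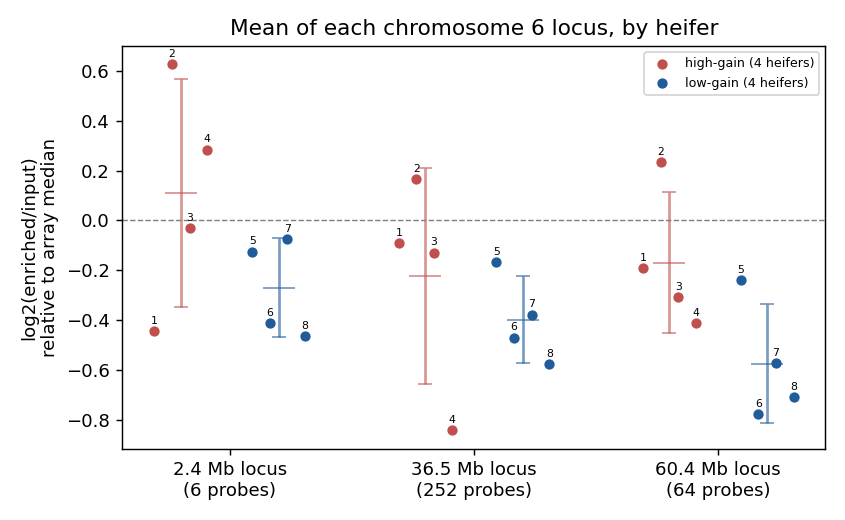
Mean log2(enriched/input) relative to the array median (vertical axis) of the 3 chromosome 6 loci (horizontal axis) in each heifer, with 1 numbered point per heifer and bars for the group mean ± SD of 4 heifers. The groups overlap at all 3 loci, and high-gain heifer 4 stands apart at -0.84 in the 36.5 Mb locus.

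Both densely tiled loci were less enriched than the median probe. In the mean of both group means, the 36.5 Mb locus lay at -0.31 (standard error 0.09; limma, adjusted p = 0.0249) and the 60.4 Mb locus at -0.37 (standard error 0.08; limma, adjusted p = 0.00720). These p-values come from a fit of all 97 loci of the array with at least 10 probes, of which 34.0% were called below the array median, 7.22% above it and 57.7% had a mean below it. They ranked 14 and 9 from the bottom of the 97. The mean over all probes of the other chromosomes was itself below the median probe on most arrays. It was -0.07, 0.00, -0.16 and -0.16 in heifers 1 to 4 and -0.10, -0.17, -0.02 and -0.18 in heifers 5 to 8. The call on the 36.5 Mb locus was lost without high-gain heifer 3 (limma, adjusted p = 0.0663) or without low-gain heifer 6, 7 or 8 (limma, adjusted p = 0.0637, 0.0586 and 0.0572). Within slide row 1, which holds heifers 1, 2, 5 and 6, both calls were lost, at -0.14 and -0.24 (limma, adjusted p = 0.401 and 0.234), while within slide row 2 the loci lay at -0.48 and -0.50.

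Both loci were brighter than the median probe in both channels. Relative to each array's median probe in the same channel, the 36.5 Mb locus averaged 0.18 in the enriched and 0.20 in the input channel, and the 60.4 Mb locus 0.59 and 0.68, on the log2 scale. Each channel was centred on its own median, so these values do not subtract to the ratio. Taken alone, the enriched channel therefore placed both loci above, not below, the array median.

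At the 60.4 Mb locus the heifers' means were -0.19, 0.24, -0.31 and -0.41 in the high-gain and -0.24, -0.78, -0.57 and -0.71 in the low-gain group. Low-gain heifer 5 lay inside the high-gain range, and heifers 6, 7 and 8 lay below all high-gain heifers. The difference, high-gain minus low-gain, was 0.41 with a standard error of 0.16 and missed the threshold (limma, unadjusted p = 0.0270, adjusted p = 0.240), where 0% of the 97 loci passed at adjusted p under 0.05 while 4.12% were higher and 10.3% lower at unadjusted p under 0.05, 46.4% had a positive difference, and in 4.12% the groups did not overlap. It was the second largest positive difference among the 97 loci. In its parts it was 0.23 in the enriched and -0.17 in the input channel, neither at unadjusted p under 0.05 in limma's fit. With normexp background correction it was 0.44 (limma, adjusted p = 0.0356), over probes above background in both channels 0.88 (0.0221) and with array weights 0.54 (0.00907), each past the threshold. The share of all loci that passed in these alternatives is not given here, and array weights called 20.0% of all regions. Leaving out 1 heifer at a time gave 0.27 (high-gain heifer 2 absent) to 0.52 (low-gain heifer 5 absent), and the difference did not pass in any of these fits. Slide row 1 alone gave 0.53 and slide row 2 alone 0.28.

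At the 36.5 Mb locus, heifers 1 to 4 had means of -0.09, 0.17, -0.13 and -0.84, and heifers 5 to 8 of -0.17, -0.47, -0.38 and -0.58. High-gain heifer 4 was the lowest of all 8, and the other high-gain heifers were the highest. The difference of 0.17 (standard error 0.19) missed the threshold (limma, adjusted p = 0.609). It was 0.38 without high-gain heifer 4 and 0.04 without high-gain heifer 2, and 0.36 within slide row 1 against -0.01 within slide row 2. With array weights it was 0.39 and passed (limma, adjusted p = 0.0263), and over probes above background in both channels it was 0.57 and did not (0.128). The fit with array weights called 20.0% of all regions, and its share of all loci is not given here.

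The 2.4 Mb locus, with 6 probes at a median spacing of 1368 bp, was too sparse for the fit of loci and is given by values only. Its means were -0.45, 0.63, -0.03 and 0.28 in the high-gain and -0.12, -0.41, -0.08 and -0.47 in the low-gain heifers. High-gain heifers 2, 3 and 4 lay above all low-gain heifers, and heifer 1 lay near the low-gain minimum. One of its probes, starting at 2416823, separated the groups, as 6.87% of all probes did. It had 0.00, -0.06, 0.27 and 1.36 in heifers 1 to 4 and -0.34, -0.80, -1.16 and -1.53 in heifers 5 to 8. That difference of 1.35 (standard error 0.48) did not pass over all probes (limma, adjusted p = 0.336). The highest probe of this locus on average, starting at 2414979 (0.56), had an enriched signal over background on only 2 arrays, and the lowest, starting at 2419382, averaged -0.51.

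Along the 36.5 Mb locus the ratio was not even. In successive 20000 bp stretches from its first probe, the mean of the 8 arrays was -0.16, -0.49, -0.38, -0.31, -0.37, -0.29, -0.16 and -0.25. All 8 stretches lay below the array median, the second one lowest. The group difference in the same order was 0.03, 0.38, 0.28, 0.11, 0.53, 0.10, -0.22 and -0.06. It was largest in the fifth stretch, from 36579886 to 36599294, where the means were -0.11 ± 0.45 (high-gain) and -0.63 ± 0.29 (low-gain; SD, n = 4 each), and had the opposite sign in the last 2. Along the 60.4 Mb locus the first stretch (34 probes) differed by 0.18 and the second (28 probes) by 0.60, with means of -0.21 ± 0.41 (high-gain) and -0.81 ± 0.33 (low-gain; SD, n = 4 each). The third holds only 2 probes and differed by 1.52, with 0.49 ± 0.99 against -1.03 ± 0.22 (SD, n = 4 each). The differences of the stretches were not split by channel. Most of the 15 probes of chr6:60383821-60390872 lie in the second stretch. Their difference was 0.07 in the enriched and -0.60 in the input channel (limma, unadjusted p = 0.793 and 0.0127). In the same stretch these were 0.57 and -0.19 at chr6:60373998-60375303, and -0.35 and -0.34 at chr6:60381105-60382855.

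**Figure D2:**
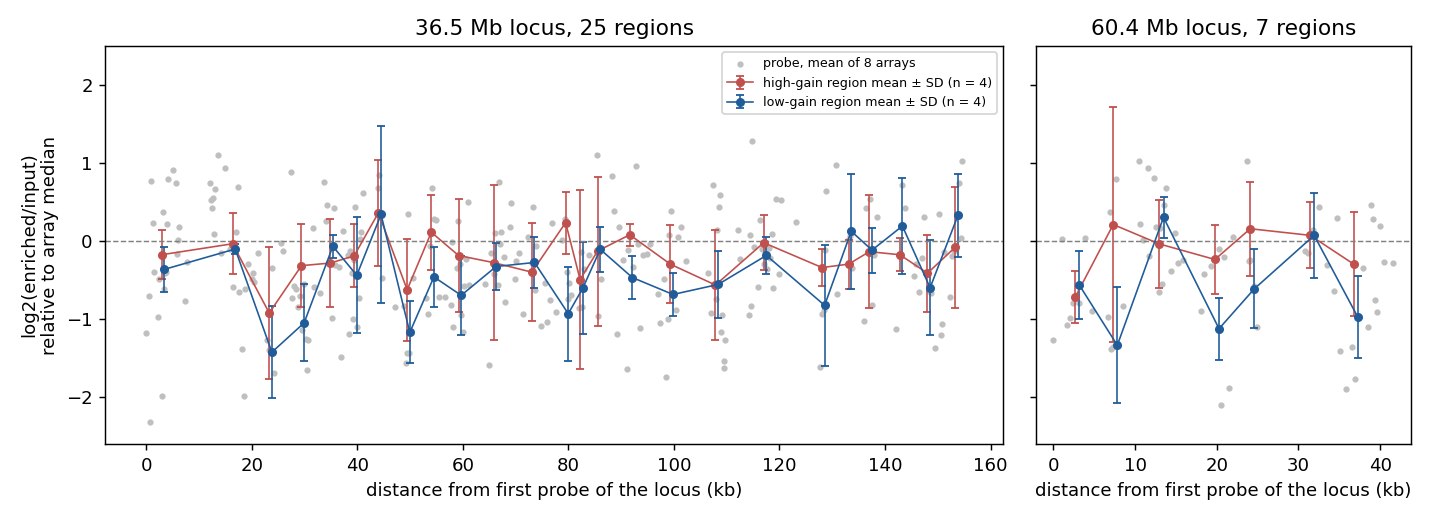
Log2(enriched/input) relative to the array median (vertical axis) against distance in kb from the first probe of the 36.5 Mb locus (left, 25 regions) and the 60.4 Mb locus (right, 7 regions). Grey points are probes averaged over 8 arrays, and coloured points are region means of each group with SD over 4 heifers. In the mean of both groups 27 of the 32 regions lie below 0, and in 22 the high-gain mean is above the low-gain mean.

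Regions, taken as at least 3 probes with neighbouring starts at most 1000 bp apart, numbered 32 on chromosome 6 among 960 on the array. In the mean of both groups 27 of the 32 lay below the array median, where 56.0% of all 960 did, and the median region of chromosome 6 lay at -0.31 against -0.04 over all regions. By chromosome this median ran from -0.56 (chromosome 12, 1 region) to 0.18 (chromosome 22, 16 regions). It was -0.36 on chromosome 4 (28 regions) and 0.12 on chromosome 29 (231 regions). Of the 32, 8 were called below the median and 0 above it (limma, adjusted p under 0.05), against 9.58% and 3.33% of all regions. Of the 8, 5 lay in the 36.5 Mb and 3 in the 60.4 Mb locus. The 8 became 3 without low-gain heifer 6, 4 without low-gain heifer 7 or 8, and 5 without high-gain heifer 3 or 4. In that order of heifers, these fits called 3.54%, 5.6%, 3.75%, 4.17% and 6.15% of all regions below the median.

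The lowest was the 4-probe region chr6:36522813-36524177. Its values were -0.70, 0.03, -1.01 and -2.00 in heifers 1 to 4 and -0.87, -1.59, -1.05 and -2.18 in heifers 5 to 8. All heifers but heifer 2 lay well below 0, and the groups overlapped. Its mean of -1.17 (standard error 0.20; limma, adjusted p = 0.00531) ranked 5 from the bottom of 960 regions. All 4 probes averaged below 0, and none was dim in a whole group. In the enriched channel it lay at 0.28 and in the input at 1.16, on the log2 scale relative to the array median.

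Next came chr6:36548724-36550545 (6 probes) at -0.89 (standard error 0.17; limma, adjusted p = 0.00675), below 0 on 8 of 8 arrays. It ranged from -1.54 in heifer 4 to -0.01 in heifer 3 among high-gain heifers and from -1.52 to -0.72 among low-gain heifers. Here the input was near the array median (0.06) and the enriched channel under it (-0.55). Of its 6 probes 2 were dim on all low-gain arrays, and over probes above background in both channels its mean was -0.47 and missed the threshold (limma, adjusted p = 0.133). Within slide row 1 it was -0.65 (limma, adjusted p = 0.0716).

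The third, chr6:36527255-36531843 (13 probes), was the next region after the lowest one and averaged -0.68 (standard error 0.16; limma, adjusted p = 0.0198). That call was lost without low-gain heifer 6, 7 or 8 (limma, adjusted p = 0.0608, 0.0501 and 0.0619), within slide row 1 (-0.47, 0.274), with the median over probes (-0.66, 0.0694) and with the robust trended fit (0.0551). In the 60.4 Mb locus the called regions were chr6:60368332-60372390 (9 probes), chr6:60351312-60355153 (7 probes) and chr6:60383821-60390872 (15 probes), at -0.68, -0.64 and -0.63 (standard errors 0.14, 0.14 and 0.18).

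In the fit used here 0 of the 32 regions were called above the array median. The 3 with the highest means were chr6:36543817-36544547 at 0.35 (3 probes), chr6:60360781-60366248 at 0.13 (16 probes) and chr6:36652258-36654602 at 0.13 (6 probes), with limma adjusted p of 0.321, 0.528 and 0.671. The first of them spread from -1.32 in heifer 6 to 1.18 in heifer 5. At the first and the last the input lay at -3.10 and -2.54 and the enriched channel at -2.46 and -2.12, far under the array median, and 2 of 3 and 3 of 6 probes were dim in the enriched channel on all low-gain arrays. Both means turned negative with loess (-0.02 and -0.18), with the authors' values (-0.14 and -0.10) and over probes above background in the input (-0.47 and -0.72). With normexp, in contrast, the first was called above the median, at 0.21 (limma, adjusted p = 0.0327).

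Single probes ranged from -2.32 to 1.29 in the mean of both groups at the 36.5 Mb locus and from -2.10 to 1.03 at the 60.4 Mb locus. The lowest, at 36500636, had -1.20, 0.72, -3.46 and -3.22 in heifers 1 to 4 and -4.41, -1.81, -2.22 and -2.96 in heifers 5 to 8, so only heifer 2 lay above 0. At the 60.4 Mb locus the lowest probe, at 60370786, had the same exception, with heifer 2 at 1.46 and the others between -4.71 and -1.64. The highest probe of the 36.5 Mb locus, at 36614679 (1.29), was above background in the enriched channel on 1 array. At the 60.4 Mb locus the highest, at 60360781 (1.03), was so on 7 arrays. Its values were 0.63, -0.92, 0.51 and 0.60 in heifers 1 to 4 and -0.44, 4.98, 4.84 and -1.93 in heifers 5 to 8, so low-gain heifers 6 and 7 set its mean. Over all 322 probes 215 averaged below the array median, where 50.7% of all probes did, and 25 were called below it and 3 above it (limma, adjusted p under 0.05), against 4.23% and 1.31%.

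Between the feeding groups, 0 of the 32 regions passed after adjustment over 960 regions (limma, smallest adjusted p on chromosome 6 = 0.175), where 0.104% of all regions did. At unadjusted p under 0.05, 6 regions were higher in high-gain heifers and 0 were lower, against 6.25% and 8.23% of all 960 regions. The difference was positive in 22 of the 32, against 47.9% of all regions, with a median of 0.17 against -0.03 over all regions. Chromosomes varied widely in this share, from 12.5% (chromosome 22, 16 regions) to 100% (chromosome 12, 1 region). It was 71.4% on chromosome 4 (28 regions, median 0.17), so the tilt is not particular to chromosome 6. Chromosome 29, with 231 of the 960 regions, had 35.5%. The count of 6 became 3 when high-gain heifer 1 or 3 was left out, 11 when high-gain heifer 4 was, 3 when low-gain heifer 6 was and 2 when low-gain heifer 7 was. Within slide row 1 it was 6, and within slide row 2 it was 2 higher and 2 lower. Loess gave 2, equal spread of the arrays 3, the slide column as a block 3, normexp 10 and the filter on input above background 10. Array weights gave 13, and called 8 chromosome 6 regions after adjustment (7 higher, 1 lower), in a fit that called 20.0% of all regions. For none of these other settings is the share of all regions at unadjusted p under 0.05 given here. The changes in the count therefore cannot be read as particular to chromosome 6. These 6 regions had been seen in earlier results, and the sizes below tend to be overstated since the regions were picked by them.

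The first of the 6 was chr6:36578772-36580438, with 6 probes. Heifers 1 to 4 had 0.43, 0.66, -0.26 and 0.12, and heifers 5 to 8 had -1.0, -0.25, -0.76 and -1.70. The groups touched at heifers 3 and 6, which differed by less than 0.01, and were otherwise apart. High-gain minus low-gain was 1.17 (standard error 0.32; limma, unadjusted p = 0.00308, adjusted p = 0.175). Slide row 1 alone gave 1.17 and slide row 2 alone 1.16, and with 1 heifer left out it ran from 0.91 (heifer 8) to 1.39 (heifer 6). Blocking on slide column gave 0.89 (limma, unadjusted p = 0.0685). That estimate rests on heifers 2, 4, 6 and 7, since slide columns 1 and 3 held 1 group each. The enriched channel differed by 0.59 and the input by -0.57 (limma, unadjusted p = 0.0738 and 0.120), sizes close to each other with opposite signs. Of the 6 probes 4 had a positive difference, and 3 separated the groups, starting at 36579203, 36580085 and 36580378, with differences of 1.94, 2.17 and 1.69. Groups did not overlap at 6.87% of all probes, and this region was picked by its group difference, so these probes add no support.

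Further along the same locus, chr6:36588109-36595470 (14 probes) was the one region of the 32 whose groups did not overlap, against 6.25% of all regions. Its values were 0.09, -0.02, 0.28 and -0.02 in high-gain and -0.07, -0.58, -0.53 and -0.68 in low-gain heifers. Heifers 6, 7 and 8 lay well below the high-gain heifers, and heifer 5 just under them. The difference was 0.55 (standard error 0.23; limma, unadjusted p = 0.0313, adjusted p = 0.295), and slide row 1 alone gave 0.36, slide row 2 alone 0.74 and loess 0.36. Only 7 of its 14 probes had a positive difference, and the probe differences ran from -1.19 to 2.66. The probe at 36593375 had -0.16, 0.28, 0.97 and -0.80 in high-gain and -1.88, -2.43, -2.15 and -2.72 in low-gain heifers, with all 8 arrays above background in both channels. Its difference of 2.37 (standard error 0.48) did not pass over all probes (limma, adjusted p = 0.249).

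The remaining one in the 36.5 Mb locus was chr6:36527255-36531843, which was also among the lowest regions. Its values were -0.15, -0.12, 0.11 and -1.09 in heifers 1 to 4 and -0.33, -1.29, -1.14 and -1.42 in heifers 5 to 8. High-gain heifer 4 lay with low-gain heifers 6, 7 and 8, and low-gain heifer 5 lay near the other high-gain heifers. The difference was 0.73 (standard error 0.32; limma, unadjusted p = 0.0400, adjusted p = 0.299), with 11 of 13 probes positive. It was 0.99 without high-gain heifer 4 and 0.41 with loess (limma, unadjusted p = 0.00515 and 0.176).

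In the 60.4 Mb locus, chr6:60368332-60372390 (9 probes) had 0.10, 0.16, -0.78 and -0.42 in high-gain and -0.68, -1.62, -0.98 and -1.21 in low-gain heifers. High-gain heifer 3 lay under low-gain heifer 5 and was the single overlap. The difference of 0.89 (standard error 0.29; limma, unadjusted p = 0.00881, adjusted p = 0.226) lay mostly in the enriched channel (0.77, against -0.11 in the input). Slide row 1 alone gave 1.28, slide row 2 alone 0.50 and loess 0.47.

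The largest of the 6 differences, 1.55, belonged to chr6:60356954-60358914 (6 probes) and had the widest spread (standard error 0.61; limma, unadjusted p = 0.0258, adjusted p = 0.292). Its high-gain values were 0.47, 0.90, -1.97 and 1.45, and its low-gain values -0.93, -0.57, -1.58 and -2.25. High-gain heifer 3 lay below 3 of the 4 low-gain heifers. All 6 probes had a positive difference, from 0.53 to 2.51, and the enriched channel held it (1.60, against 0.06 in the input). It was 2.27 without high-gain heifer 3 and 1.14 without high-gain heifer 4.

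The last, chr6:60373998-60375303 (5 probes), had -0.23, -0.09, 1.06 and -0.10 in high-gain and -0.10, -1.16, -0.90 and -0.28 in low-gain heifers. High-gain heifer 3 stood far above the other 3 high-gain heifers, which lay close to low-gain heifers 5 and 8. The difference was 0.77 (standard error 0.34; limma, unadjusted p = 0.0403, adjusted p = 0.299), and 0.47 without high-gain heifer 3 (limma, unadjusted p = 0.144). Of its 5 probes 2 were dim in the enriched channel on every array. Over probes above background in both channels it was 1.70, and with the median over probes 1.53 (limma, unadjusted p = 0.0104 and 0.00384). Heifer 3 was thus the highest high-gain heifer in this region and the lowest in that at 60356954, in the same locus.

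**Figure D3:**
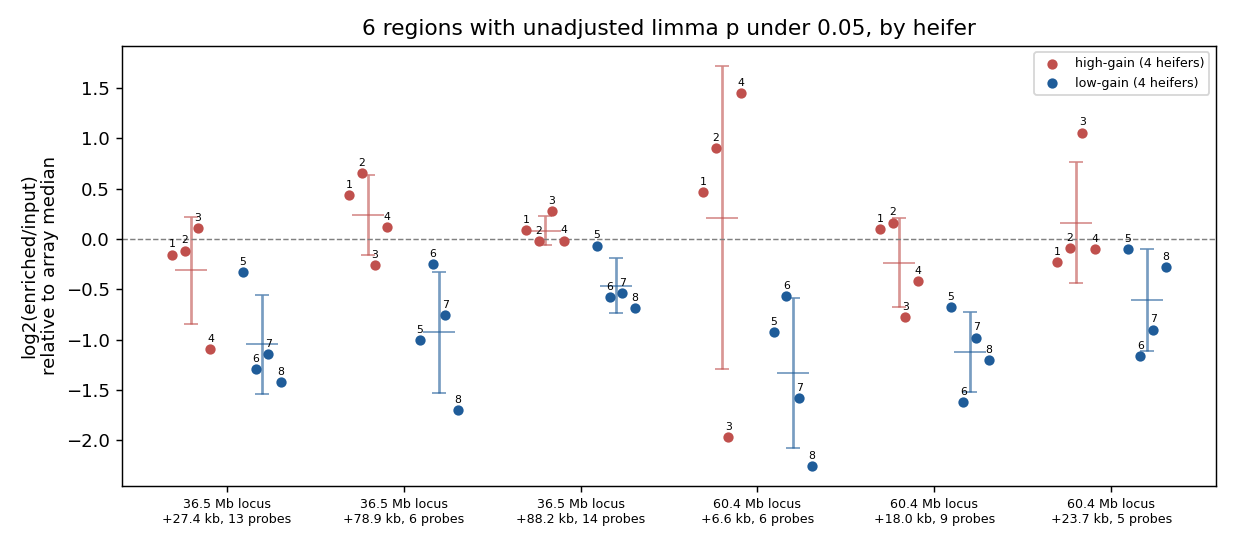
Log2(enriched/input) relative to the array median (vertical axis) in each heifer, numbered, for the 6 chromosome 6 regions with unadjusted limma p under 0.05 between groups, labelled by locus and distance from its first probe. Bars are group means ± SD of 4 heifers. Only the third region from the left, at 88.2 kb in the 36.5 Mb locus, has no overlap between the groups.

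Of the 322 single probes 0 passed after adjustment over all probes (limma, smallest adjusted p on chromosome 6 = 0.167), as did 0% of all 10249. At unadjusted p under 0.05, 30 were higher with high gain and 15 lower, against 7.21% and 5.23% of all probes. The difference was positive at 189, against 44.7% of all probes. The smallest p belonged to the probe at 36506211, which had -1.59, -0.68, -1.19 and -1.35 in heifers 1 to 4 and 0.87, 1.30, 2.24 and 1.83 in heifers 5 to 8. It was dim on all 8 arrays, so its difference of -2.76 (standard error 0.45) has no measured fold. The next belonged to the probe at 60390812, near the distal end of the 60.4 Mb locus. It had 0.38, 0.94, 1.11 and 1.45 in high-gain and -1.28, -1.41, -1.41 and -1.96 in low-gain heifers, and all 8 arrays were above background there in both channels. Low-gain heifer 5 lay with its group at this probe, and the difference was 2.49 (standard error 0.41). No 3 neighbouring probes on chromosome 6 reached unadjusted p under 0.05 with the same sign, while 13 such runs lay elsewhere.

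The groups did not overlap at 25 chromosome 6 probes, 13 of them higher on high-gain arrays and 12 lower, against 6.87% of all probes. On the other chromosomes 260 probes were higher and 417 lower in this way, and of those dim on all 8 arrays 0 were higher and 141 lower. Of the 13 on chromosome 6 that were higher, with differences from 1.05 to 2.66, 13 were above background in the enriched channel on at least 1 array of each group. Of the 12 lower, with differences from -0.68 to -2.96, 10 were dim on every array, and only 1 was above background on at least 1 array of each group. The largest lower difference, at 36623033 (-2.96), was measured where no array had an enriched signal above background, so it has no measured fold.

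Brightness moved with the group difference over all chromosome 6 probes. At the 124 probes above background in both channels on all 8 arrays (bright), the difference was positive for 79.0%, with a median of 0.60. At the 42 probes dim in the enriched channel on every array it was positive for 4.76%, with a median of -0.93. On the other chromosomes the corresponding shares were 46.2% (median -0.09) and 13.8% (median -0.76). The enriched signals of the dim class are not measured, so its values describe the scanner's output and not methylation. The difference between chromosomes was not tested.

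Heifer by heifer, the bright chromosome 6 probes averaged -0.00465, 0.17, -0.15 and -0.32 in the high-gain and -0.22, -0.68, -0.76 and -1.24 in the low-gain group. Low-gain heifer 5 lay inside the high-gain range, and heifers 6, 7 and 8 lay below it. The group means were -0.08 ± 0.21 and -0.72 ± 0.42 (SD, n = 4 each), a difference of 0.65. Bright probes of the other chromosomes averaged 0.03 ± 0.09 and -0.10 ± 0.16 (SD, n = 4 each), a difference of 0.13, so by the mean it was positive there too while by the median it was -0.09. Those on chromosome 6 were also brighter in the input than those elsewhere, at 2.68 against 1.70 log2 units over the array median. The input of the bright chromosome 6 probes averaged 2.85 ± 0.12 on low-gain and 2.52 ± 0.20 on high-gain arrays (SD, n = 4 each). Bright probes elsewhere had the same direction, at 1.79 ± 0.09 on low-gain and 1.61 ± 0.19 on high-gain arrays (SD, n = 4 each). The part of the input in the difference was not tested. The dim chromosome 6 probes averaged -0.02, 0.05, 0.30 and -0.96 in heifers 1 to 4 and 0.61, 0.36, 1.07 and 1.40 in heifers 5 to 8, values that rest on enriched signals not above background.

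**Figure D4:**
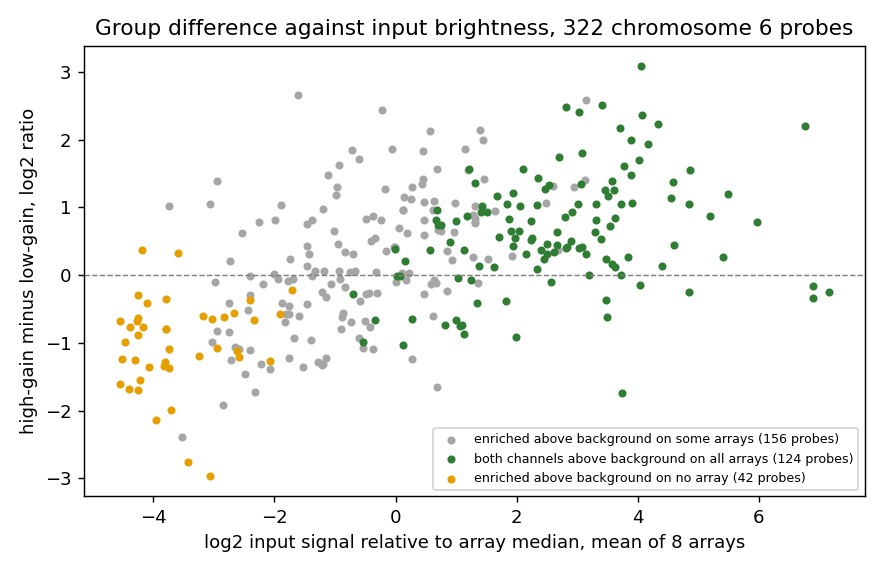
High-gain minus low-gain log2 ratio (vertical axis) of each of the 322 chromosome 6 probes against its log2 input signal relative to the array median, averaged over 8 arrays (horizontal axis). Green points are the 124 probes above background in both channels on all arrays, orange points the 42 dim in the enriched channel on every array, and grey points the 156 others. Orange points lie mostly below 0 and green points mostly above.

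On 7 of the 8 arrays the ratio fell with input brightness across chromosome 6 probes, and in heifer 4 r was near 0. The probes are not independent replicates and share the array and the input signal itself. Pearson's r was -0.10, -0.19, -0.20 and -0.02 in heifers 1 to 4 and -0.28, -0.39, -0.59 and -0.69 in heifers 5 to 8. The relation was stronger on each low-gain array than on any high-gain array. Over the other chromosomes r was -0.05, -0.14, -0.15 and -0.07 and -0.16, -0.30, -0.41 and -0.54, in the same order of heifers. With the enriched signal, r of the ratio over chromosome 6 probes was 0.24, 0.15, 0.28 and 0.55 in heifers 1 to 4 and 0.17, 0.17, -0.18 and -0.19 in heifers 5 to 8, positive in 6 of 8.

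**Figure D5:**
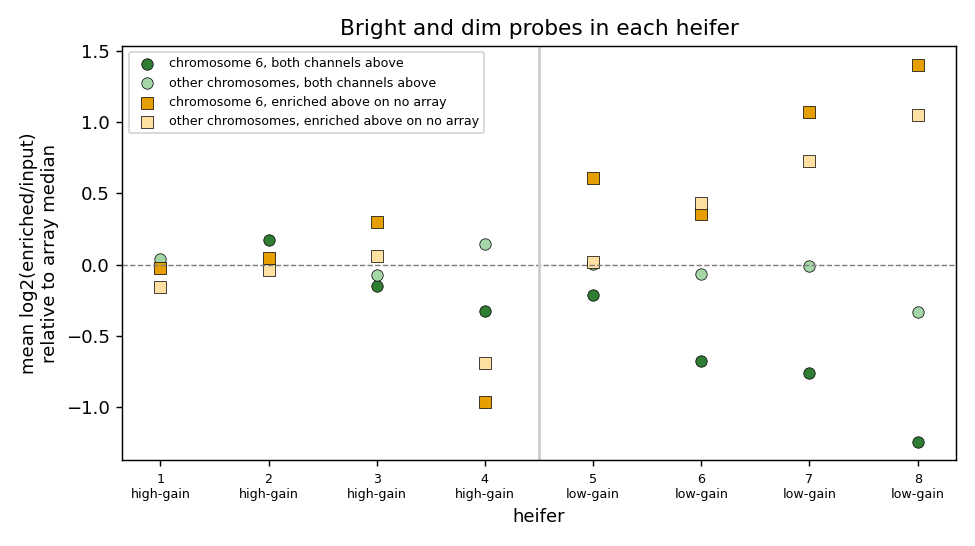
Mean log2(enriched/input) relative to the array median (vertical axis) in each heifer (horizontal axis), for probes above background in both channels on all arrays (circles) and dim in the enriched channel on every array (squares), on chromosome 6 (dark green and orange) and elsewhere (pale). In low-gain heifers 6, 7 and 8 the dark green circles lie between -1.24 and -0.68, and the pale green circles between -0.33 and -0.01.

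Low-gain heifer 5 differed from its group in profile as well as in level. Across the 322 probes, Pearson's r between pairs of heifers 6, 7 and 8 was 0.42 to 0.63, and r of heifer 5 with them 0.07 to 0.23. High-gain heifers correlated with each other at -0.02 to 0.13. Between the groups, high-gain heifer 3 correlated with heifers 5 to 8 at 0.18 to 0.28, above every pair of high-gain heifers. High-gain heifer 4 correlated with heifers 5 to 8 at 0.10 to 0.19. Likeness of profile was thus greatest among low-gain heifers 6, 7 and 8 and did not follow the high-gain group. On the arrays of these heifers the ratio also fell most strongly with input brightness, on chromosome 6 and elsewhere. The part of brightness in their likeness was not tested. No such r between heifers is given here for bright probes alone or for the other chromosomes. Without heifer 5, 15 chromosome 6 probes passed over all probes (limma, adjusted p under 0.05), against 3.01% of all probes in the same fit. Of these 13 were higher in high-gain heifers, 9 of them above background in both channels on all arrays, and 2 were lower, both dim in the enriched channel on every array. Their differences ran from 2.01 to 3.95 upward, and were -2.99 and -3.62 downward. The largest lay at 36528659, in the region at 36527255 described above. Leaving out any other single heifer gave 0.

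Correlation between neighbouring probes was weak. For pairs with starts at most 200 bp apart (42 pairs), the 8-array means correlated at r = 0.25 and the group differences at 0.14, across probe pairs that share arrays and brightness. For 151 pairs over 200 and up to 500 bp apart these were 0.13 and 0.01, for 82 pairs over 500 and up to 1000 bp apart 0.17 and 0.17, and for 44 pairs over 1000 bp apart 0.03 and 0.02. The region and locus values above are thus means over probes that vary widely among themselves, with a standard deviation over probes of the 8-array mean of 0.68 at the 36.5 Mb and 0.74 at the 60.4 Mb locus.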

How the data were processed

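Per the file headers, the scanner software was Agilent Feature Extraction 10.7.1.1, and the deposited intensity values used are its background-subtracted, detrended and linearly dye-normalised processed signals. The authors' deposited log2 table equals, within 0.0001 wherever both channels exceed local background, the log2 ratio of median signals less that background. Its direction is therefore enriched over input, it is not centred (array medians -0.42, 0, -0.51, -1.07, -0.87, -0.89, -1.52 and -1.82 for heifers 1 to 8), and centred it served as an alternative. The deposited log10 ratio was not used. Here log2(enriched/input) was taken per probe, 28 outlier spots (1 on chromosome 6) were omitted, and the median of each array was subtracted. Locus, region and probe values were fitted with limma 3.58.1 in R 4.3.3 over the whole array (two-sided, Benjamini-Hochberg, threshold 0.05), with steps tested on simulated data. All arrays shared 1 slide and 1 scan day, so slide row and column were the batches available. Slide column was partly confounded with group. Column 1 held only high-gain heifers 1 and 3, and column 3 only low-gain heifers 5 and 8. Columns 2 (heifers 2 and 7) and 4 (heifers 4 and 6) held both groups. Fits blocked on slide column therefore compare the groups within columns 2 and 4 only. P-values cover the spread between heifers, and 4 arrays a group limit the precision. Exact permutation tests had been planned for means and detection over all chromosome 6 probes, and none is given, since chromosome 6 and the regions were chosen with earlier results of these data known. Alternatives covered background correction, loess, scaling, filters on dim probes, the enriched channel alone, gaps, array weights, a robust fit, slide position and each heifer left out. Named by rule were all loci, regions at unadjusted p under 0.05, runs of probes (0 on chromosome 6), the 3 highest and 3 lowest regions, and the highest and lowest probe of each locus. Other probes and stretches were chosen after their values were seen.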

Additional observations from a re-analysis of the deposited data

Results flagged for a closer look

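Of 34 groups of 4 heifers checked, 1 held a heifer far from the rest, where chance alone gives about 1 in 20. In the region chr6:60373998-60375303, high-gain heifer 3 lay at 1.06 and the other high-gain heifers between -0.23 and -0.09, so its gap made up 0.889 of the group's whole range.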

How the results depend on the processing

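No paired analysis was made because the labels give no variable that matches heifers of the 2 groups. With the slide row as a block, none of the counts moved by over 1.5 times. Of the tiled loci, 0 differed between groups, but 1 did with normexp or over probes above background in both channels and 2 with array weights, and 0 in each fit without 1 heifer. Shares of all loci called in these alternatives are not given here. Array weights, which gave heifer 1 a weight of 3.22 and heifers 4 and 5 weights of 0.38 and 0.37, also called 8 regions, 7 higher and 1 lower (20.0% of all regions in that fit). They called 13 probes, and the share of all probes in that fit is not given here. Without 1 heifer, called regions stayed at 0 and called probes ranged from 0 to 15. The 15 came without low-gain heifer 5, where 3.01% of all probes were called. In the profile, 2 loci were called, 1 with the enriched channel alone (above the median, not below), 0 within slide row 1, and 1 to 2 without 1 heifer. The 8 regions called in the profile were all below the median. With normexp 18 were called (17 below and 1 above, against 26.4% and 3.12% of all regions). With the enriched channel alone 25 were called (10 below and 15 above, against 24.9% and 41.1%). The following settings called regions only below the median, given here with the share of all regions called below. These were 13 over probes above background in the input (17.6%), 5 over both channels (6.47%) and 5 with equal spread (6.67%). The median over probes gave 3 (2.29%), the robust trended fit 2 (2.60%) and slide row 1 alone 2 (2.29%). Fits without 1 heifer gave 3 to 10 (3.54% to 16.25%). Regions higher at unadjusted p under 0.05 (6) were 10 with normexp or input above background, 2 with loess, the enriched channel alone or within slide row 2, 3 with equal spread or the slide column block, 13 with array weights, and 2 to 11 without 1 heifer. Lower ones (0) were 1 with a region gap of 500 bp or array weights, 2 within slide row 2, and 0 to 2 without 1 heifer. Shares of all regions at unadjusted p under 0.05 in these settings are not given here, so the counts cannot be read as particular to chromosome 6. Of 24 alternatives each, unadjusted p rose above 0.05 in 2 for the region at 36578772, 3 at 60368332, 9 at 60373998, 10 at 60356954, 10 at 36588109 and 15 at 36527255, with no change of sign. The difference of the mean over chromosome 6 (0.22) was 0.58 over probes above background in the input and 0.65 over both channels, 0.39 and 0.06 within slide rows 1 and 2, and 0.09 to 0.40 without 1 heifer. Signs turned for the 36.5 Mb locus within slide row 2 (-0.0079), and with the enriched channel alone for the profile of both loci (0.18 and 0.59), of the regions at 36522813 (0.28) and 36527255 (1.04), and for chromosome 6 against the other chromosomes (0.045). For the highest regions they turned at 36652258 with the authors' values (-0.10), loess (-0.18), the enriched channel (-2.12), input above background (-0.72) and without high-gain heifer 2 (-0.059, and up to 0.25 without another heifer), and at 36543817 with the same first 4 settings (-0.14, -0.022, -2.46 and -0.47), while normexp called it above the median (0.21). The cause was not tested. Dim enriched signals, at 42 of 322 probes on every array, limit what can be measured there.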
